A study of Mus musculus with 16 samples.

Results

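The genes described here are 10 genes of antigen presentation by MHC class II and of the Langerhans cell, taken by name from the 24421 genes of a count table. They are the chain genes H2-Aa, H2-Ab1 and H2-Eb1, the peptide-loading gene H2-DMa, the invariant chain gene Cd74, the regulator Ciita, the Langerhans cell lectin Cd207, the costimulatory ligands Cd86 and Cd80, and the chemokine receptor Ccr7. RNA was sequenced from skin of female SKH-1 mice, a hairless strain whose skin can be exposed to light without shaving. Epidermis came from unexposed mice and from mice given 60 mJ/cm2 of ultraviolet B (UVB) in 2 sessions per week, each at weeks 2, 15 and 25. At week 25 tumors were also taken from exposed mice and whole skin from unexposed ones, so that the tumors and their control differ in tissue as well as in exposure. Each of the 8 groups has 2 libraries, numbered 0 and 1, and the labels give no age and do not say that the 2 came from separate mice, so the p-values speak of the spread between samples alone, and it may be technical.

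Dendritic cells carry peptides of extracellular proteins on MHC class II molecules and show them to CD4 T cells. Langerhans cells are the dendritic cells of the epidermis and take up antigen among keratinocytes, and the lectin langerin, encoded by Cd207, marks them. On activation such cells increase CD80 and CD86, which bind CD28 and CTLA-4 on T cells, and CCR7, which guides them to the lymph node. Exposure to UVB is known to deplete Langerhans cells from the epidermis of mice for some days and to dampen contact allergy. CIITA switches on class II genes by joining proteins already bound to their promoters, the RFX complex at the X box and NF-Y at the Y box.

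The class II promoters are shown because the chain genes moved together with each other and less closely with Ciita in the values below. RefSeq windows of 300 bases (250 before and 50 after the start, build GRCm38.p6) were at hand for 5 of the 10 genes, H2-Aa, H2-Eb1, H2-DMa, Cd207 and Cd80. They were searched on both strands for GCAAC, the core of the X box, and GATTGG, a Y box whose reverse strand holds the CCAAT sequence that NF-Y binds. These letters were chosen after some of these promoters had been read. The motifs do not overlap each other. GCAAC starting 25 to 35 bases before GATTGG was found in 2 of the 5 genes, H2-Aa and H2-Eb1, and in 3 of 15 other class II pathway genes with a window, H2-Oa, H2-Ob and H2-Eb2. That pair was in 67 of 32851 mouse promoter windows (0.204%), while GCAAC alone was in 35.2% and GATTGG alone in 16.1%. In each stretch the first capitals are GCAAC and the second GATTGG, and the gene's start lies to the right.
H2-Aa: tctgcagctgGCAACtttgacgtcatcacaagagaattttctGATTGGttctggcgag
H2-Eb1: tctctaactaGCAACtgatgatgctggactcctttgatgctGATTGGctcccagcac
H2-Eb2: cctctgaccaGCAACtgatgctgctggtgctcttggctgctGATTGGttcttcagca
H2-Ob: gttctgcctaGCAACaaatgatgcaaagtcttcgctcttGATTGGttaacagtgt
H2-Oa: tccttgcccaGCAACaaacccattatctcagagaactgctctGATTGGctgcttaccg
They lie at chr17:34287857-34287914 on the minus strand for H2-Aa, and on the plus strand at chr17:34305766-34305822 for H2-Eb1, chr17:34325533-34325589 for H2-Eb2, chr17:34238808-34238862 for H2-Ob and chr17:34092293-34092350 for H2-Oa. GCAAC started 81 bases before the RefSeq start of H2-Aa and 91 bases before that of H2-Eb1, and the motif starts were 32 and 31 bases apart. H2-DMa had a window at chr17:34122582-34122881 with GCAAC alone and another at chr17:34125268-34125567 with GATTGG alone. The window of Cd80 held GCAAC alone, and that of Cd207 held neither. A match is a run of letters and not a measured binding site.

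Library totals ran from 2905165 deposited counts in week 2 control 1 to 7959503 in whole skin control 0. Every member passed the filter on low counts in the fits reported here and in those that left out 1 library. Cd80 had 10 counts in both libraries of a group only in UVB epidermis at week 15, whole skin and tumor, and Ccr7 only in UVB epidermis at weeks 15 and 25, whole skin and tumor, so these 2 genes entered through the groups where they were high. The other 8 genes had at least 10 counts in every library. Levels are counts scaled to library size (CPM) scaled with all 16 libraries, differences are log2 values ± the standard error of edgeR's fit, and a gene is said to rise or fall where its Benjamini-Hochberg adjusted p over all genes is under 0.05. Replicates of each group differed beyond sampling noise (chi-square per degree of freedom of 4.62 to 46.2). In bulk RNA, a change in the number of cells of a type and a change in RNA per cell cannot be told apart. Cd207 had at least 86 counts in every library, so its RNA was present throughout, and bulk RNA does not show which cells held it. Markers of keratinocytes summed to 2203 to 3414 CPM per library.

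**Figure D1:**
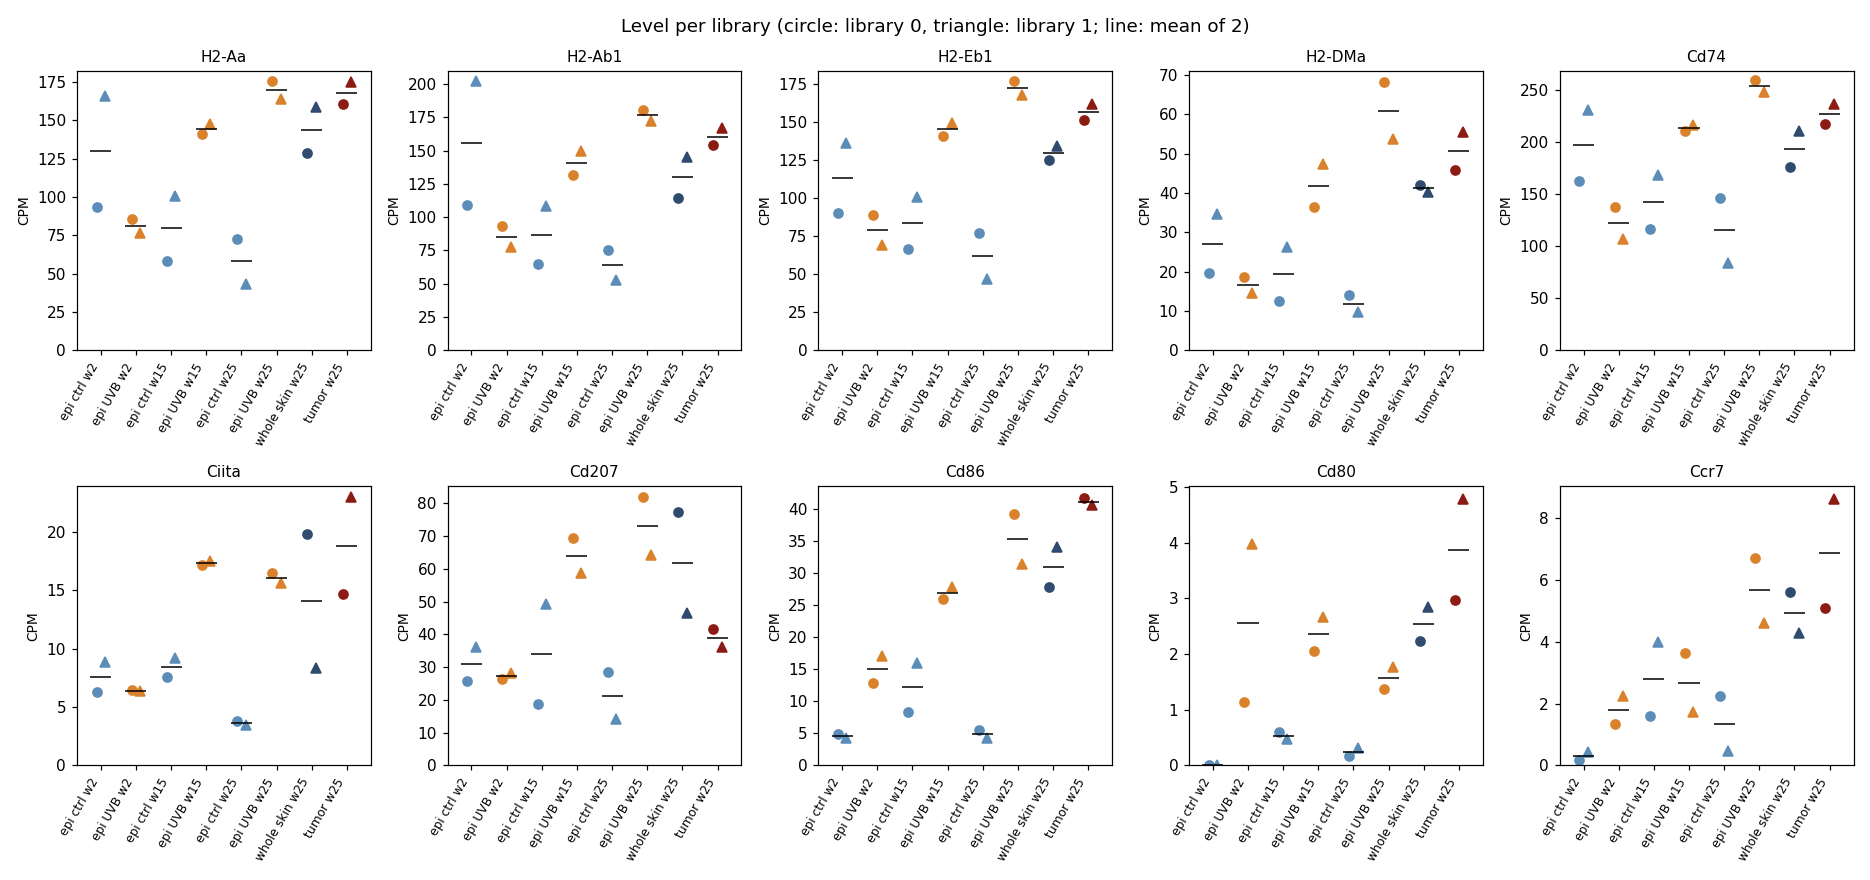
Level of each of the 10 genes in CPM (vertical axes, from 0, own scale per gene) in the 16 libraries by group (epi, epidermis; ctrl, unexposed; w, week). Points are single libraries and lines the mean of 2; control epidermis of week 25 has the lowest mean for 7 of the 10 genes and control epidermis of week 2 for the other 3, Cd86, Cd80 and Ccr7.

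Compared per length, the class II chains and Cd74 were the abundant members and the regulator and the ligands were scarce. In UVB epidermis at week 25 the mean level was 179 CPM per kb of exon for Cd74, 159 for H2-Aa, 148 for H2-Ab1 and 103 for H2-Eb1. H2-DMa, which helps to exchange peptides on class II molecules, stood at 36.8 CPM per kb there, and Cd207 at 47.7. Cd86 stood at 13.9 CPM per kb, Ccr7 at 2.87, Ciita at 2.67 and Cd80 at 0.93. In control epidermis of week 25 the same order began with Cd74 at 81.4 CPM per kb, H2-Aa at 54.2 and H2-Ab1 at 53.6, and ended with Cd80 at 0.14.

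At week 25 the genes of antigen presentation were higher in UVB epidermis than in control epidermis, with no overlap between the libraries for any of the 10 genes. Of the 10, 8 rose and none fell, where 10.6% of all genes tested rose. Groups without overlap in this direction were seen in 35.4% of all genes. The median log2 over the 10 genes was 1.93, and over all genes 0.01.

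The regulator Ciita (chromosome 16, 10480072 to 10527640, mm10) had 3.79 and 3.44 CPM in the control libraries of week 25 and 16.5 and 15.6 CPM in the UVB libraries. The replicates lay close together in both arms, and Ciita rose by 2.15 ± 0.30 (adjusted p = 0.0024). The class II α chain gene H2-Aa (chromosome 17, 34282751 to 34287771) had 72.7 and 43.1 CPM in controls and 176 and 164 CPM after UVB. It rose by 1.56 ± 0.33 (adjusted p = 0.0103). Its partner H2-Ab1, the β chain gene of the same molecule (34263227 to 34269418), had 75.0 and 53.0 CPM against 181 and 172 CPM, and rose by 1.47 ± 0.31. H2-Eb1, the β chain gene of the other mouse class II molecule (34305867 to 34316674), had 76.9 and 46.7 CPM against 177 and 168 CPM, and rose by 1.49 ± 0.28. In all 3 chain genes control 1 was the lower control, and the UVB libraries differed from each other by less than the controls did.

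Of the genes that serve the chains, H2-DMa (34122832 to 34139101) had a larger difference than theirs, a gap that was not tested. It had 14.0 and 9.69 CPM in controls and 68.2 and 53.7 CPM in UVB epidermis of week 25, a rise of 2.37 ± 0.39 (adjusted p = 0.00434). Cd74, whose protein holds the binding groove closed until peptide is loaded (chromosome 18, 60803849 to 60812652), had 146 and 84.3 CPM against 260 and 248 CPM. Its rise of 1.15 ± 0.27 (adjusted p = 0.0170) was the smallest of the 8. The microRNA gene Mir5107 shares exon sequence with Cd74 and held 65 counts over all 16 libraries.

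The Langerhans marker Cd207 (chromosome 6, 83671207 to 83677857) had 28.6 and 14.1 CPM in controls of week 25 and 81.9 and 64.2 CPM after UVB. It rose by 1.78 ± 0.42 (adjusted p = 0.0165), and its controls differed from each other by more than those of Ciita. Cd86 (chromosome 16, 36603869 to 36666077) had 5.52 and 4.22 CPM against 39.2 and 31.4 CPM. Its rise of 2.86 ± 0.35 (adjusted p = 0.00157) was the largest among the 8. The second ligand of CD28 and CTLA-4, Cd80 (chromosome 16, 38458933 to 38486932), had 19 counts in the UVB arm and 3 in the control arm, a ratio of scaled counts of 6.33 with a 95% interval of 1.86 to 33.4 for counting error only (adjusted p = 0.0562). Ccr7 (chromosome 11, 99144199 to 99155077) had 2.24 and 0.47 CPM in controls and 6.71 and 4.61 CPM after UVB, a difference of 2.08 ± 0.69 that missed the threshold (adjusted p = 0.0531).

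These calls rested in part on single libraries. Without control 1 of week 25 only H2-DMa, Ciita and Cd86 were called, and without UVB 0 only these 3 and H2-Eb1. Without UVB 1, Cd74 was lost, and without control 0 the same 8 were called. All 10 differences stayed above 0 in these 4 fits, which called 519 to 976 genes in all against 2898.

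**Figure D2:**
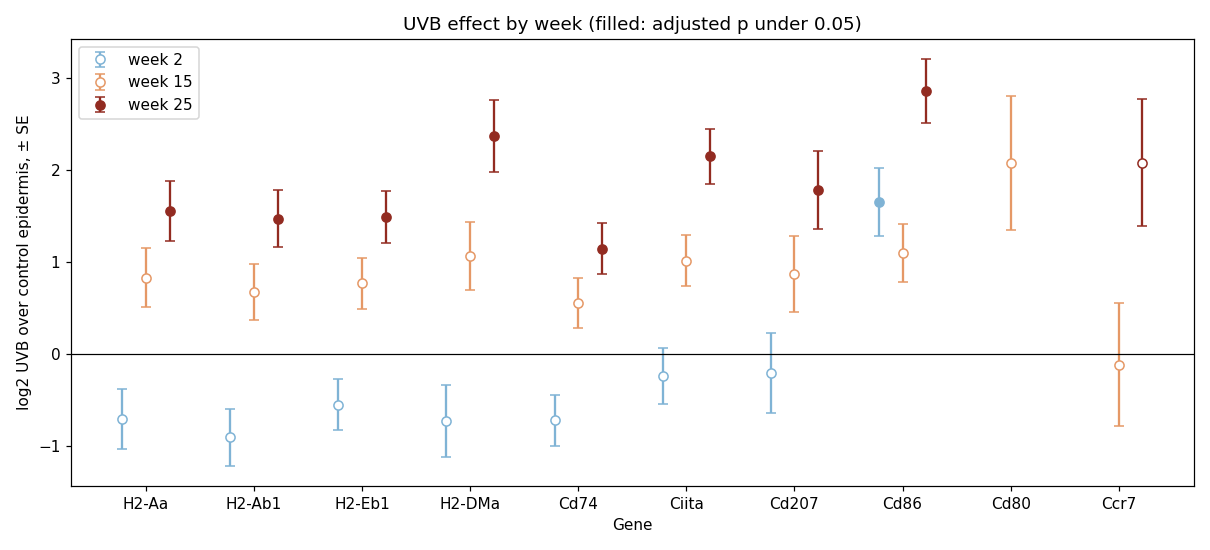
Log2 of UVB over control epidermis (vertical axis, bars ± standard error of the fit) for each gene at weeks 2, 15 and 25; filled points passed an adjusted p under 0.05. Differences against 3 or fewer control counts (Cd80 at weeks 2 and 25, Ccr7 at week 2) are not drawn; the 5 class II genes lie below 0 at week 2 and above 0 at weeks 15 and 25, while Cd86 lies above 0 at each week.

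The early time point, week 2, gave a different picture. Cd86 rose, and the class II genes were lower in both UVB libraries than in both controls without passing the test. Of the 10 genes 2 rose, Cd86 and Cd80, where 8.09% of all genes did, and none fell, where 9.74% did. Cd86 had 4.93 and 4.21 CPM in controls and 12.9 and 17.1 CPM after UVB, a rise of 1.66 ± 0.37 (adjusted p = 0.0144). Cd80 had no count in either control library and 29 counts in the UVB libraries, at least 6.68-fold higher against a floor of 3 counts over the group (adjusted p = 0.0143). It entered the fit through UVB libraries alone, so its call adds no support of its own. Ccr7 had 2 counts in controls and 20 after UVB, a ratio of 6.91 (95% interval 1.68 to 61.0, counting error only), and did not pass (adjusted p = 0.119).

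The 5 genes H2-Aa, H2-Ab1, H2-Eb1, H2-DMa and Cd74 had every UVB library of week 2 below every control, as had 28.3% of all genes. H2-Ab1 had 110 and 203 CPM in controls and 93.0 and 77.4 CPM after UVB, a difference of -0.91 ± 0.31 (adjusted p = 0.0655). Cd74 had 163 and 231 CPM against 138 and 107 CPM, and differed by -0.72 ± 0.28 (adjusted p = 0.0904). H2-Aa differed by -0.71 ± 0.33, H2-DMa by -0.73 ± 0.39 and H2-Eb1 by -0.55 ± 0.28. Control 1, the shallowest library, was the high control in all 5. Between the 2 controls of week 2, the median log2 of control 1 over control 0 was 0.25 in genes with 0.2 to 1 counts per base, the class of the chains and Cd74, and -0.20 in genes with 0.02 to 0.2 counts per base, the class of H2-DMa. It was 0.86 in genes with at least 1 count per base, a class that holds none of the 10 genes in these libraries. The part of this in the class II values was not tested. Without control 1 the differences were -0.38 for H2-Ab1, -0.42 for Cd74, -0.22 for H2-Aa, -0.27 for H2-DMa and -0.21 for H2-Eb1, and Cd80 alone was called. Without control 0, H2-Ab1 (-1.24), H2-Aa (-1.02) and Cd74 (-0.90) were called lower.

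Cd207 and Ciita did not pass the test at week 2, and their libraries overlapped between the arms. Cd207 had 25.8 and 36.2 CPM in controls and 26.3 and 28.2 CPM after UVB, a difference of -0.21 ± 0.43 (adjusted p = 0.758). Ciita had 6.25 and 8.84 CPM against 6.43 and 6.39 CPM (-0.24 ± 0.31, adjusted p = 0.666). Without control 1 both differences were slightly above 0, at 0.07 for Cd207 and 0.02 for Ciita. The rises of Cd86 and Cd80 were not called without UVB 1 of week 2, where the difference of Cd86 was 1.44 and Cd80 had 6 counts against none.

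At week 15 none of the 10 genes passed edgeR's test, where 1.85% of all genes rose, although 9 of the 10 had both UVB libraries above both controls, as had 28.5% of all genes. The median of the 10 was 0.85. Ciita came nearest, with 7.59 and 9.22 CPM in controls and 17.2 and 17.5 CPM after UVB (1.01 ± 0.28, adjusted p = 0.0701). Cd86 had 8.39 and 16.1 CPM against 26.0 and 27.8 CPM (1.10 ± 0.32, adjusted p = 0.0828). H2-DMa had 12.6 and 26.4 CPM against 36.4 and 47.3 CPM (1.06 ± 0.37, adjusted p = 0.138). Cd207 had 18.8 and 49.4 CPM in controls and 69.3 and 58.7 CPM after UVB (0.87 ± 0.41, adjusted p = 0.268). Cd80 had 0.60 and 0.48 CPM against 2.05 and 2.66 CPM, and the chains and Cd74 differed by 0.56 to 0.83. Only Ccr7 overlapped, with 1.60 and 3.97 CPM in controls and 3.62 and 1.72 CPM after UVB. Control 1 of week 15 was the higher control in 9 of the 10 genes, all but Cd80, and without it Cd86, Cd207 and H2-DMa were called (1.67, 1.76 and 1.72). At an unadjusted p under 0.05, 2755 of 13478 genes passed at week 15, and DESeq2 called Ciita and Cd86.

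Whether the UVB effect differed between the weeks was tested directly. It did for H2-DMa (adjusted p = 0.0459), Ciita (0.0461) and H2-Ab1 (0.0474), 3 of the 10 genes, where 1.6% of all genes did. H2-Eb1 (0.0568), H2-Aa (0.0598) and Cd74 (0.0621) lay just beyond the threshold, Cd86 stood at 0.121, Cd207 at 0.180, Ccr7 at 0.286 and Cd80 at 0.357. No member was called in 9 of the 12 fits that left out 1 library, among them each of the 4 that left out a week 25 library, and 6 or 7 were called in the other 3. Those 9 fits called 1 to 160 of all genes, against 215 with all libraries, and the other 3 called 393 to 2280. Averaged over the 3 weeks, Cd86 rose by 1.86 ± 0.29 (adjusted p = 0.00092), Cd80 by 2.84 ± 0.56 (adjusted p = 0.00312) and Ciita by 1.0 ± 0.33 (adjusted p = 0.0362), 3 of 10 genes where 14.4% of all genes rose. Cd80 entered these fits only through UVB libraries, where it was high, so its calls add no support of their own. Cd207 differed by 0.84 ± 0.33 (adjusted p = 0.0775) and the class II chains and Cd74 by 0.34 to 0.58. Cd86 and Cd80 were called in each of the 12 fits without 1 library, and Ciita in 5.

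Each arm was also compared with itself between weeks 2 and 25, over different libraries, and these comparisons share their libraries with those above. In UVB epidermis H2-DMa (1.89 ± 0.38, adjusted p = 0.0272), Ciita (1.33 ± 0.28, adjusted p = 0.0303) and H2-Eb1 (1.14 ± 0.28, adjusted p = 0.0451) rose, 3 of 10 genes where 4.04% of all genes rose. H2-Aa, H2-Ab1 and Cd74 differed by 1.06 to 1.08, Cd86 by 1.24 (adjusted p = 0.0503) and Cd207 by 1.43 (adjusted p = 0.0758). The libraries of Cd80 overlapped (-0.70 ± 0.62). No member was called in any of the 4 fits that left out 1 of these libraries, which called 0 to 27 of all genes against 609, while the median log2 of the 10 stayed at 1.08 to 1.28 (1.19 with all libraries). In control epidermis H2-Ab1 (-1.31 ± 0.31, adjusted p = 0.0260), H2-Aa (-1.19 ± 0.33, adjusted p = 0.0409) and Ciita (-1.06 ± 0.32, adjusted p = 0.0498) fell, 3 of 10 where 5.24% of all genes fell. None of these was called without control 1 of week 2, without control 0 of week 25 or without control 1 of week 25, fits that called 155 to 350 of all genes against 1848. H2-Eb1, H2-DMa and Cd74 differed by -0.90, -1.20 and -0.81 between these controls. Cd86 stood at 4.57 ± 0.505 CPM in controls of week 2 and 4.87 ± 0.916 CPM in controls of week 25 (SD, n = 2; difference 0.04 ± 0.39, adjusted p = 0.953). Ccr7 and Cd80 had 2 counts and none in controls of week 2.

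None of the 10 genes passed the test between tumors and UVB epidermis of the same week, where 29.5% of all genes changed. H2-Aa had 161 and 175 CPM in tumors (difference 0.00 ± 0.30), H2-Eb1 151 and 162 CPM (-0.12 ± 0.25) and Cd74 218 and 236 CPM (-0.15 ± 0.26). Cd86 had 41.7 and 40.5 CPM (0.24 ± 0.30) and Ciita 14.7 and 22.9 CPM (0.24 ± 0.38). Cd207 had 41.7 and 36.0 CPM, both below both UVB epidermis libraries, with a difference of -0.89 ± 0.41 (adjusted p = 0.123). Cd80 had 2.97 and 4.78 CPM, both above both UVB epidermis libraries (1.31 ± 0.60, adjusted p = 0.126). Ccr7 overlapped, with 5.09 and 8.60 CPM in tumors.

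Against whole skin of unexposed mice, the tumors gave no call for any gene (0.0% of 14661 genes by edgeR and 0 of 10 members, with 813 genes at an unadjusted p under 0.05). That count of 0 rested on the whole skin libraries, since 2986 genes were called without whole skin 0, among them Ciita (1.12), and 5488 without whole skin 1, among them H2-Ab1 (0.40) and Cd207 (-1.07). Cd207 had 77.3 and 46.5 CPM in whole skin, above both tumors (-0.75 ± 0.34). The other 9 genes differed by 0.15 to 0.54. All 10 genes were called higher in whole skin itself than in control epidermis of the same week, where 31.9% of all genes were called higher. Cd80 and Ccr7 entered this fit through groups where they were high, whole skin among them, so their calls add no support of their own. Cd86 had 27.9 and 34.1 CPM in whole skin and was higher by 2.70 ± 0.34 (adjusted p = 3.38e-05). Cd80 had 38 counts against 3, a ratio of 10.01 (95% interval 3.18 to 50.7, counting error only). Cd207 was higher by 1.58 ± 0.42 and Cd74 by 0.79 ± 0.26. Without control 1 of week 25, 5 of the 10 were called. The 2 whole skin libraries differed by more than any other pair, and Ciita had 19.8 CPM in one and 8.38 CPM in the other.

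Over all 8 groups the order of the levels differed between the members. H2-Aa, H2-Ab1, H2-Eb1, H2-DMa, Cd74 and Cd207 had their highest mean in UVB epidermis of week 25, and Ciita, Cd86, Cd80 and Ccr7 in tumors, and the first and second group of that order overlapped for all but H2-Ab1, H2-Eb1, Cd74 and Cd86. For Cd207 the order ran UVB week 25, UVB week 15, whole skin, tumor and then the other 4 epidermis groups, and in that order only whole skin and tumor did not overlap. For Cd86 the order ran tumor, UVB week 25, whole skin, UVB week 15, UVB week 2, control week 15, control week 25 and control week 2, with overlap between UVB week 25 and whole skin, between UVB week 2 and control week 15, and between the last 2. For H2-Ab1 control epidermis of week 2 stood at 156 ± 65.8 CPM (SD, n = 2) and overlapped tumor, above it in the order, and UVB week 15, below it. Across the 16 libraries, which share groups, the logarithms of H2-Aa, H2-Ab1, H2-Eb1, H2-DMa and Cd74 correlated with Pearson r of 0.93 to 0.98. Cd207 correlated with those 5 at 0.74 to 0.86, Ciita at 0.75 to 0.89 and Cd80 at 0.30 to 0.51. Cd86 correlated with Cd80 and with Ccr7 at 0.88 each, and with H2-Ab1 at 0.57.

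Ratios within a library set 2 members side by side free of scaling between libraries. H2-Aa over H2-Ab1, the 2 chains of 1 molecule, lay between 0.81 and 1.12 in all 16 libraries. Cd86 over Cd207 was 0.19 and 0.12 in control epidermis of week 2, 0.49 and 0.61 after UVB at that week, 0.19 and 0.30 in controls of week 25, 0.48 and 0.49 in UVB epidermis of week 25, and 1.0 and 1.12 in tumors. The UVB and control ratios did not overlap at weeks 2 and 25 and overlapped at week 15, with 0.38 and 0.47 against 0.45 and 0.32. H2-Ab1 over Cd207 was 4.25 and 5.59 in controls of week 2, 3.54 and 2.75 after UVB at that week, 2.62 and 3.77 in controls of week 25, 2.20 and 2.69 in UVB epidermis of week 25, 1.48 and 3.12 in whole skin and 3.69 and 4.63 in tumors. The arms did not overlap at week 2 and overlapped at week 25. These are ratios of CPM, not of molecules per cell.

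**Figure D3:**
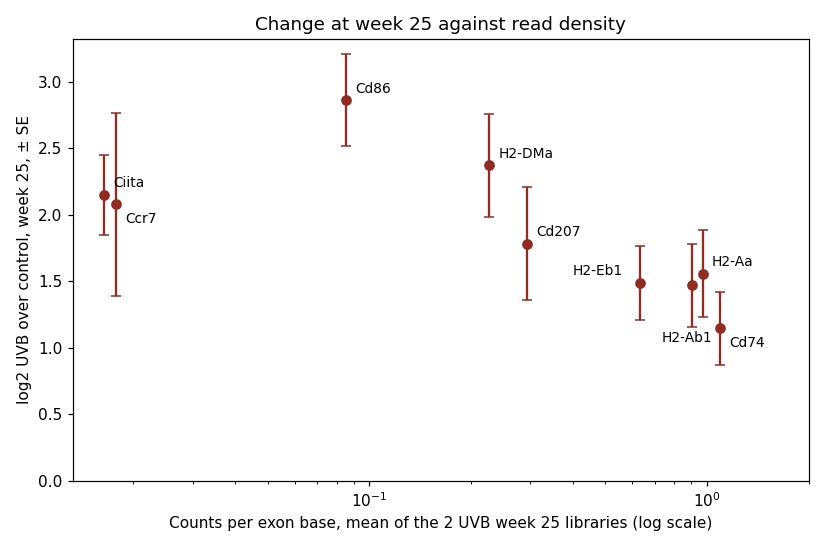
Log2 of UVB over control epidermis at week 25 (vertical axis, ± standard error) against counts per exon base, as the mean of the 2 UVB libraries (horizontal log axis), for the 9 genes with more than 3 control counts. Cd74, H2-Aa, H2-Ab1 and H2-Eb1, the genes of highest density, have the 4 smallest differences, from 1.15 to 1.56.

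The 4 members of highest read density had the 4 smallest differences drawn at week 25, although among these 4 the differences did not follow density. The deposited counts come from alignments without duplicates, per the file headers, and no gene with at least 500 exon bases exceeded 2.11 counts per base in any library. Cd74 reached 1.22 counts per base, H2-Aa 1.20 and H2-Ab1 1.03, against 0.27 for H2-DMa, 0.117 for Cd86 and 0.033 for Ciita. Removing duplicates takes more reads from dense genes, so the differences of Cd74 and the chains may be understated beside those of H2-DMa, Cd86 and Ciita. How far was not tested.

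Other genes of the class II pathway gave a mixed account at week 25, with 6 of 15 tested rising and 1 falling (median log2 0.28). Both genes for the partner chain of H2-DMa were among those that rose. H2-DMb1, the more abundant of them, had 12.2 and 7.97 CPM in controls and 50.02 and 42.2 CPM after UVB (2.20 ± 0.37, adjusted p = 0.00475). The cathepsin gene Ctss, whose protease trims the invariant chain, rose by 3.11 ± 0.35 (adjusted p = 0.00132), from 9.14 and 5.78 CPM to 66.6 and 62.0 CPM. Lgmn, another lysosomal protease gene, rose by 1.40 ± 0.23, and March1, whose ligase removes class II molecules and CD86 from the cell surface, by 2.69 ± 0.50. H2-DMb2, a close copy of H2-DMb1 so that the split of reads between them is uncertain, rose by 2.69 ± 0.56, and H2-Ob, part of the H2-O molecule that inhibits peptide loading by H2-DM, by 2.44 ± 0.56. The cathepsin gene Ctsl was not called (0.11 ± 0.29). The genes of the RFX complex, which are not restricted to presenting cells, were not called, with differences of Rfx5 by 0.48 ± 0.23 (adjusted p = 0.155), Rfxap by 0.08 ± 0.20 and Rfxank by 0.08 ± 0.24, and Creb1 fell by 0.53 on the log2 scale. At week 2, 1 of the 15 was called, Ifi30, a thiol reductase gene of antigen processing, which fell by 0.82 (adjusted p = 0.0301). At week 15 Lgmn alone was called, with a rise of 1.09.

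Interferon γ is the best known inducer of Ciita, and its part in the Ciita values was not tested. Part of the genes of its signalling rose at each week. Of 10 tested, 3 rose at week 2 (Cxcl9 by 4.66 ± 1.16, Cxcl10 by 2.87 ± 0.80, Jak2 by 0.90 ± 0.24) and 6 at week 25, when Jak1 fell. At week 15, 3 of the 10 rose, Cxcl10 and Cxcl9 among them. Cxcl10, which encodes a chemokine for T cells, rose by 4.40 ± 0.68 at week 25. Of 11 genes of the MHC class I pathway, 2 rose and 1 fell at week 2, 1 rose at week 15, and 3 rose and 1 fell at week 25. Nlrc5, the class I counterpart of Ciita, was the gene that fell, by 0.82 at week 2 and by 0.72 at week 25, the week at which Ciita rose. The immunoproteasome gene Psmb10 rose at each week, by 0.94, 1.47 and 1.79.

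Among 7 tested costimulatory ligands other than Cd80 and Cd86, Icosl rose at every week (1.93 ± 0.46, 2.02 ± 0.42 and 1.93 ± 0.43), and Cd40, through which T cells activate dendritic cells, rose at week 25 (3.25 ± 0.66, adjusted p = 0.00897), as did Tnfsf9. Vtcn1, an inhibitory relative of the B7 ligands, fell by 3.20 at week 2, and Tnfsf18 by 3.59 at week 25. Of 5 T cell genes, Cd28, Ctla4, Cd4, Icos and Pdcd1, 3 were tested in epidermis. Ctla4 fell by 4.02 at week 2, with 11 counts against 104, while Cd86 rose. Cd4 rose at week 25 by 2.88 ± 0.66, and at week 15 it had 19 counts against none, at least 5.61-fold (adjusted p = 0.0399). The Ccr7 ligand genes Ccl19, Ccl21a, Ccl21b and Ccl21c had no count in any of the 16 libraries. The Ccl21 genes are near-identical copies whose reads can map to several places, so their 0 counts are uncertain.

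At week 2, 2 of the genes on which Langerhans cells depend fell. Il34, the keratinocyte cytokine that maintains them through the receptor gene Csf1r, had 139 and 110 CPM in controls and 53.3 and 57.7 CPM after UVB at week 2. It fell by 1.21 on the log2 scale at week 2 (adjusted p = 0.00417) and by 0.81 at week 15 (adjusted p = 0.0323), and at week 25 it differed by -0.39 ± 0.17 (adjusted p = 0.113). Runx3, a factor required for the Langerhans lineage, fell by 1.33 at week 2 and rose by 1.26 ± 0.35 at week 25. Csf1r rose by 2.46 ± 0.27 at week 25 and is also a macrophage gene. In all, of 10 genes of growth and lineage, 2 rose (Tgfbr1 and Tgfbr2) and 2 fell at week 2, Il34 alone was called at week 15, and 2 rose and 1 fell (Ahr, by 1.12) at week 25.

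Other Langerhans markers gave no call at weeks 2 and 15 in 9 tested genes, Cd207 included, and 7 of the 9 rose at week 25. Ly75, which encodes the endocytic receptor DEC-205, rose by 2.83 ± 0.64, Itgax, the CD11c gene, by 2.21 ± 0.46 and Mfge8 by 2.15 ± 0.32. Dcstamp had 47 counts against none, at least 15.7-fold higher. Epcam and Cdh1, which keratinocytes also express, were the 2 not called, and Cdh1 was the most abundant of the list at 670 ± 26.2 CPM in controls of week 25. Genes that rose are not all confined to Langerhans cells either, and Ly75 is also in the list of mature dendritic cells. Of 9 genes of mature dendritic cells, 4 rose at week 25 (Cd200, Ly75, Cd83 and Fscn1). At week 2 Cd200 rose by 1.33 ± 0.19 and Relb fell by 1.33. Xcr1, Clec9a and Cd209a, markers of conventional dendritic cells, stood between 0 and 7.58 CPM in every epidermis library. Other genes of the type 1 and type 2 dendritic cell lists rose at week 25, in 3 of 5 (Irf8, Itgae and Tlr3) and 1 of 4 tested (Mgl2). The most abundant genes of the lists for mature, type 1 and type 2 dendritic cells, Birc3, Cadm1 and Sirpa, stood at 62.6, 69.2 and 137 CPM in controls of week 25. The class II genes and Cd86 are shared by all of these cells.

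Markers of macrophages and of leukocytes in general also rose at week 25, and their part in the members' differences was not tested. At week 25, 9 of 12 tested macrophage and monocyte genes rose, among them Ccr2 by 3.95 ± 0.55 and Csf1r, and C1qc had 80 counts against 2. Their summed level was 35.8 and 45.0 CPM in controls of week 25, 140 to 194 CPM in UVB epidermis, 488 to 774 CPM in whole skin and 820 to 1030 CPM in tumors. The 10 members, summed, stood at 425 and 259 CPM in controls of week 25 and 923 to 1007 CPM in UVB epidermis. Their sums were 720 to 785 CPM in whole skin and 836 to 908 CPM in tumors. General leukocyte markers rose in 4 of 5 genes at week 25, with sums of 70.2 to 106 CPM in controls, 211 to 255 CPM in UVB epidermis and 374 to 442 CPM in tumors, and Laptm5 was the most abundant. At week 2 these sums were 84.9 to 141 CPM in controls and 69.3 to 87.0 CPM after UVB, and Cd52 fell by 1.39. Macrophage sums at week 2 were 68.4 to 68.6 CPM in controls and 71.0 to 75.4 CPM after UVB. Of 12 tested macrophage genes 1 rose and 1 fell at that week. Lyz2, the most abundant macrophage gene of the list over all 16 libraries, fell by 2.18 at week 2 and rose by 2.44 ± 0.58 at week 25. No macrophage gene of the list was at 0 in both UVB libraries of any week.

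T cell markers gave sums of 37.0 to 70.7 CPM in controls and 55.7 to 57.6 CPM in UVB epidermis of week 25, and of 33.2 to 66.5 CPM and 16.6 to 24.8 CPM at week 2, when Cd3g, the most abundant of them, fell by 1.80. B cells also carry class II, Cd74, Ciita and Cd86. Their markers summed to 1.8 to 7.1 CPM in all 16 libraries, with Ms4a1 at 0 in all 12 epidermis libraries. Of 5 genes of type 1 dendritic cells 3 rose at week 25 (Irf8, Itgae and Tlr3), and of 4 genes of type 2 dendritic cells 1 did (Mgl2). The 7 keratinocyte markers, of which Krt1 was the most abundant, gave no call at week 25, and Itga6, Krt5 and Trp63 rose at week 2.

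**Figure D4:**
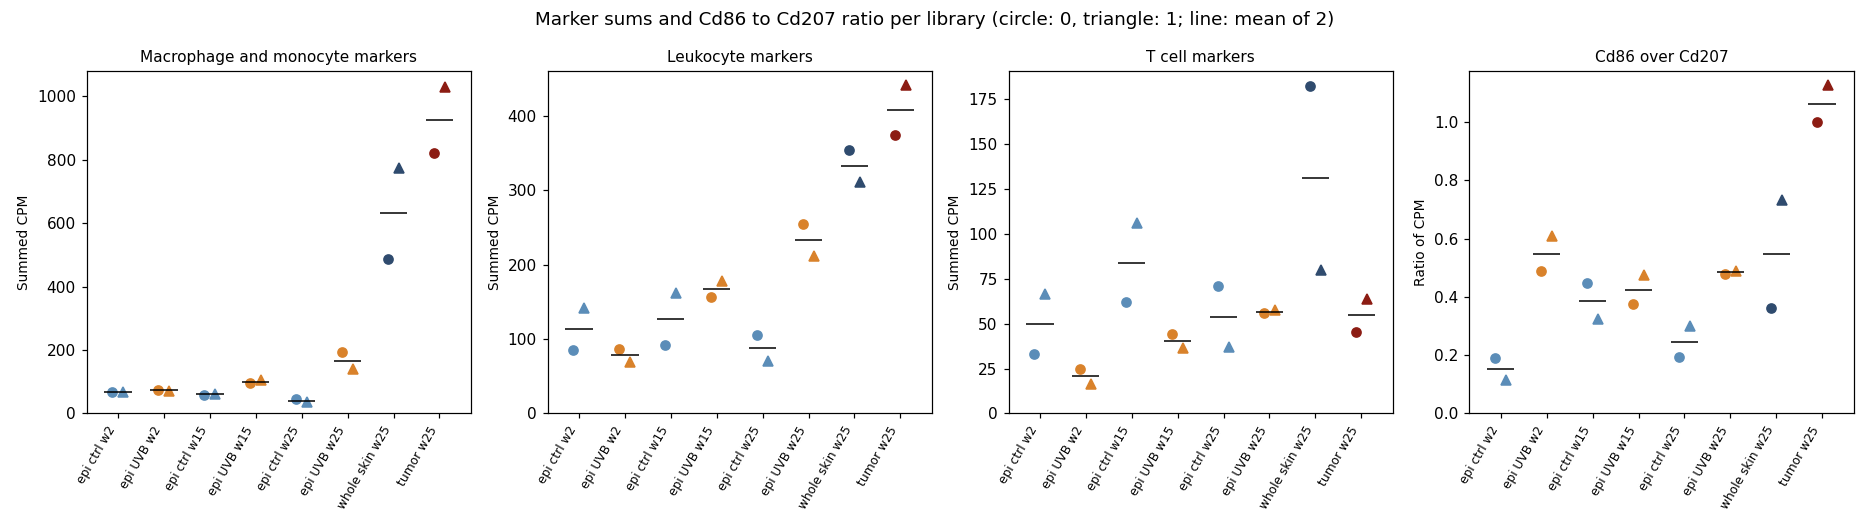
Summed CPM of macrophage and monocyte, leukocyte and T cell markers per library, and the ratio of Cd86 to Cd207 in CPM (vertical axes from 0; points are single libraries, lines the mean of 2). Macrophage sums reach 820 to 1030 CPM in tumors, and the Cd86 to Cd207 ratio is highest there, at 1.0 and 1.12.

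The genes whose pattern was most like that of 3 members were sought among 11639 genes whose mean was 5 CPM or more, by Pearson r of log2(CPM + 0.5) over the 16 libraries, as a description of libraries that share groups. For Cd207 they were H2-DMb2 (r = 0.89), Adam23 (0.87), H2-M5 (0.86), Il17re (0.86) and Prkcb (0.84). For H2-Ab1 they were Il11ra1 (0.88), H2-DMb1, Mfge8, Fam173b and S100a4 (0.87 each). For Ccr7 they were Cd244, P2ry10 and Ackr3 (0.94 each), Gpr171 (0.93) and Nr4a1 (0.92). Scaled by total counts instead, 4, 3 and 4 of these 5 remained among the first 5.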

How the data were processed

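RNA of 16 libraries was analysed from 1 deposited table of whole-number read counts per gene. The submitters' processing notes name HISAT2, Picard, DESeq2, featureCounts and the build mm10 without versions, and, per the file headers, duplicates had been taken out of the alignments before counting. How strand and multi-mapping reads were treated is not given in the sources used here.

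Counts were fitted in R 4.3.3 with edgeR 4.0.16 (filterByExpr with minimum count 10 and minimum total 15, TMM, quasi-likelihood F test, prior count 0.125). P-values were adjusted by Benjamini-Hochberg over all genes. The UVB effect by week, its change over weeks and the changes within each arm came from 1 fit of 12 epidermis libraries (13478 genes, 6 residual degrees of freedom). The mean over weeks used additive terms (8 degrees of freedom). Tumor against whole skin used its 4 libraries (14661 genes, 2 degrees of freedom), and the other tissue comparisons all 16 (15126 genes). The fits were tested on simulated data. Intervals of count ratios are 95% and exact for counts, and cover counting error only. Alternatives were DESeq2 1.42.0, limma 3.58.1 voom, RLE scaling, no filter, minimum count 30, other sets of libraries, the replicate number as a block, and leaving out each library.

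The members and lists were chosen with earlier results of these data known. All 10 members are named. Of each list, up to 4 called genes with the smallest p per comparison and the most abundant marker are named, and genes named beyond this were chosen after their values were seen. Some list genes that this rule would name are not reported here. Promoter sequences are from RefSeq (GRCm38.p6).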

Additional observations from a re-analysis of the deposited data

Results flagged for a closer look

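Flagged were 6 genes. They passed the test of the difference between weeks, or had all UVB libraries below control at week 2 and above it at week 25. Of all genes 1.6% passed that test, and the share apart in opposite directions is not given here. Under other settings with all libraries of the epidermis the test passed for 0 to 7 members. Over the 3 weeks the adjusted p of that test was 0.0459 for H2-DMa, 0.0461 for Ciita and 0.0474 for H2-Ab1. For H2-Eb1 (adjusted p = 0.0568), H2-Aa (adjusted p = 0.0598) and Cd74 (adjusted p = 0.0621) the arms were apart in opposite directions at weeks 2 and 25, but the test of the difference missed the threshold of 0.05. The other 4 genes were not among these.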

How the results depend on the processing

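The number of the 10 genes called depended on the tool, the filter and single libraries. With limma voom the count was 5 instead of 3 for the mean over weeks, 1 instead of 0 at week 15, 0 instead of 3 for the difference between weeks, 5 instead of 3 for UVB epidermis between weeks 25 and 2, and 1 instead of 3 for controls between these weeks. With DESeq2 it was 2 at week 15, 7 for the difference between weeks, 8 for UVB epidermis and 6 for controls between weeks. Without a filter it was 4 at week 2, 4 at week 15, 7 for the difference, 8 for UVB epidermis and 5 for controls. At a minimum count of 30, which leaves out Cd80 in every comparison and Ccr7 in those of epidermis alone, it was 1 at week 2. From only the 4 libraries compared, where Cd80 was left out at weeks 2 and 25 and Cd80 and Ccr7 between control weeks, it was 0 at week 2, 8 for UVB epidermis, 0 for controls and 2 for tumor against UVB epidermis, and with all 16 libraries it was 0 for the difference. Leaving out 1 library gave 2 to 7 for the mean over weeks, 0 to 5 at week 2, 0 to 3 at week 15, 3 to 8 at week 25, 0 to 7 for the difference, 0 for UVB epidermis between weeks in each case, 0 to 6 for controls, 0 to 2 for tumor against whole skin, 0 for tumor against UVB epidermis and 5 to 10 for whole skin against control epidermis. Where a group kept 1 library, it was assumed to vary like the others. At week 25 the other settings called 8 or 9.

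With the replicate number as a block, the count was 0 for the difference between weeks and 1 for controls between weeks. The labels do not say whether the numbers pair the samples. Deviations of same-numbered libraries correlated at -0.17 to 0.26 over 28 pairs of groups and exceeded 0.1 in 8. Among these were control and UVB epidermis of week 25 (0.22) and UVB epidermis and tumor of week 25 (0.18). With 2 libraries per group, such correlations cannot decide whether samples were paired.

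Signs turned for H2-Aa in tumor against UVB epidermis, to 0.055 with DESeq2, 0.055 with RLE scaling, 0.013 at a minimum count of 30 and 0.022 from the 4 libraries compared, and it ran from -0.061 to 0.048 without 1 library. Without 1 library, signs also turned for Ciita (-0.45 to 0.023) and Cd207 (-0.40 to 0.066) at week 2, Ccr7 at week 15 (-0.73 to 0.72), Cd80 between weeks in UVB epidermis (-1.33 to 0.47), Cd86 between weeks in controls (-0.15 to 0.23), Ciita in tumor against whole skin (-0.16 to 1.12), and Ciita (-0.11 to 0.52) and Ccr7 (-0.14 to 0.61) in tumor against UVB epidermis. The cause was not tested.

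Over all genes, the calls of the alternatives without a left-out library ran from 684 to 3016 at week 2 (2403 in the main analysis), 234 to 1146 at week 15 (471), 1779 to 4562 at week 25 (2898), 33 to 1123 for the difference (215), 470 to 1912 for UVB epidermis (609), 1 to 3030 for controls (1848), 0 to 235 for tumor against whole skin (0) and 4113 to 6974 for tumor against UVB epidermis (4469). Other scaling moved the median of all genes by at most 0.06 on the log2 scale. Depth limits Cd80 and Ccr7 most.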
